A study of Mus musculus with 10 samples.

Results

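Aqp1 encodes aquaporin-1, a channel that lets water cross the cell membrane along an osmotic gradient. The 10 mouse mammary carcinoma lines of the series were divided by the RNA level of this gene in CPM, its count scaled to a common total over the named genes of each library. The 5 lines with at least 100 CPM are called Aqp1-high here and the 5 lines below 50 CPM Aqp1-low, so that all 10 of 10 lines were placed. The Aqp1-high lines are primary 5, CTC 1, CTC 3, metastasis 5 and metastasis 3, and values of this class are listed below in that order. The Aqp1-low lines are the parental line, primary 7, primary 8, CTC 6 and metastasis 7, likewise in that order. The classes were made from values of these same libraries. Gene levels and transcript shares set between them are therefore a description, with no test.

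The parental line is 4T1-hHER2, mouse mammary gland carcinoma cells of strain BALB/cfC3H that stably express human HER2 and luciferase after lentivirus infection. The other 9 lines were grown from NSG mice (NOD-SCID-GAMMA, the strain their labels give) and, per the labels, go back to circulating tumour cells (CTCs) of mice given orthotopic 4T1-hHER2-Luc tumours. The 3 primary lines come from fat pad xenografts, the 3 CTC lines from circulating tumour cells and the 3 metastasis lines from the lung. Each line is 1 library, the labels do not say whether a line is a clone, and the numbers in the names are those of the titles, whose meaning the labels leave unsaid. NSG hosts lack lymphocytes and natural killer cells but keep fibroblasts, endothelium and myeloid cells, any of which a culture from a tumour could carry over.

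Epithelial cells are held together by E-cadherin junctions, tight junctions and desmosomes, and their keratins and junction genes are kept on by factors such as Grhl2, Ovol1 and Elf3 and by the splicing factors Esrp1 and Esrp2. In an epithelial-mesenchymal transition these genes go down while vimentin, matrix genes and receptors such as Pdgfra go up, often in part only, and Zeb, Snai and Twist proteins are the best known repressors of the epithelial genes. 4T1 cells are a widely used model of spontaneous metastasis that keep epithelial and mesenchymal traits together.

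The libraries held 79869760 to 97722716 estimated counts, of which 63275645 to 77476609 fell on named genes and 19.7% to 22.8% on assembled transcripts tied to no gene. Mitochondrial transcripts took 1.63% to 3.14% of the named counts in the Aqp1-high and 1.07% to 2.51% in the Aqp1-low lines. Of 13 macrophage markers 11 stayed under 1 CPM in every library, and Adgre1, C1qb, C1qc and Tyrobp were listed at 0. Their summed level was 9.81 to 21.8 CPM in the Aqp1-high and 1.28 to 7.81 CPM in the Aqp1-low lines, and Mertk, a receptor for dying cells, reached the most of the list at 20.2 CPM in metastasis 3. Of 13 endothelial markers 8 stayed under 1 CPM everywhere, Emcn and Robo4 were listed at 0, and the summed level was 185 to 334 CPM in the Aqp1-high and 126 to 182 CPM in the Aqp1-low lines, led by Eng and Flt1. Of 15 fibroblast markers 7 stayed under 1 CPM everywhere, and their sum, led by Gsn and Pdgfra, was 243 to 473 CPM in the Aqp1-high and 81.9 to 391 CPM in the Aqp1-low lines. Of the 6 fibroblast markers with a mean of at least 1 CPM, 5 had a higher mean in the Aqp1-high lines and 2, Pdgfra and Dcn (decorin, 0.87 to 12.6 against 0 to 0.6 CPM), did not overlap, while Col6a3 and Pdgfrb reached 15.7 and 19.1 CPM in metastasis 5. Dcn, Col6a3 and Pdgfrb reached a mean of 1 CPM only through Aqp1-high lines, so the filter set their direction. Their class means were 4.25 and 0.26, 3.32 and 0.04, and 7.11 and 0.27 CPM. Col1a1 reached at most 2.31 CPM, Col3a1 0.33 CPM and Thy1 0.13 CPM. Neutrophil, adipocyte, lung epithelial, skeletal muscle and red cell and platelet markers summed to at most 0.89, 4.63, 4.88, 4.99 and 8.91 CPM in any library. The part of these levels in the class differences was not tested.

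Aqp1 itself, at chr6:55336432-55348555 (+ strand; all positions are GRCm38, GENCODE M21), was at 221, 127, 319.5, 415 and 326 CPM in the Aqp1-high lines and at 0.09, 3.8, 3.48, 5.92 and 24.2 CPM in the Aqp1-low lines. The line just inside the upper class was CTC 1 and the line just outside it metastasis 7. Within the Aqp1-low class, the parental line stood lowest with 7 counts, and metastasis 7 stood highest. The class means were 282 ± 110.2 and 7.49 ± 9.56 CPM (SD, n = 5 each). Here and below, more cells with a transcript and more of it per cell cannot be told apart in bulk RNA.

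Pdgfra (chr5:75152292-75198215, + strand) encodes the PDGF receptor alpha, a tyrosine kinase of fibroblast-like cells. It was at 61.4, 70, 144, 274 and 132 CPM in the Aqp1-high lines and 4.23, 4.83, 3.82, 9.63 and 11.9 CPM in the Aqp1-low lines, with means of 136 ± 85.2 and 6.88 ± 3.65 CPM (SD, n = 5 each). The classes lay 2.32 apart on the scale of log2(CPM + 0.5), the lowest of the upper class minus the highest of the lower, and metastasis 5 carried the most. Galnt15 (chr14:32028989-32062197, + strand), an enzyme of the family that starts O-linked sugar chains on proteins, was at 48.6, 51.6, 75.3, 251 and 109 CPM against 0, 0.03, 0, 3.65 and 7.67 CPM. The parental line and primary 8 had no Galnt15 counts, while CTC 6 and metastasis 7 were intermediate.

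Krt19 (chr11:100140810-100148665, - strand), a keratin of simple epithelia, went the other way, with 19.3, 1.45, 0.79, 4.99 and 2.65 CPM in the Aqp1-high and 50.6, 121, 247, 38.5 and 32.02 CPM in the Aqp1-low lines. Its classes did not overlap, and the difference of class means was -4.22 on the log2(CPM + 0.5) scale. Esrp1 (chr4:11331933-11386783, - strand; it shares exon bases with Gm26663), an epithelial splicing factor, was at 13.4, 2.07, 0.93, 3.28 and 0.11 CPM against 60.8, 122, 16.7, 4.1 and 48.4 CPM. For Esrp1 the classes overlapped, since primary 5 stood above CTC 6, although the difference of means was -3.58. Without primary 5, or without CTC 6, the Esrp1 values of the classes did not overlap.

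**Figure D1:**
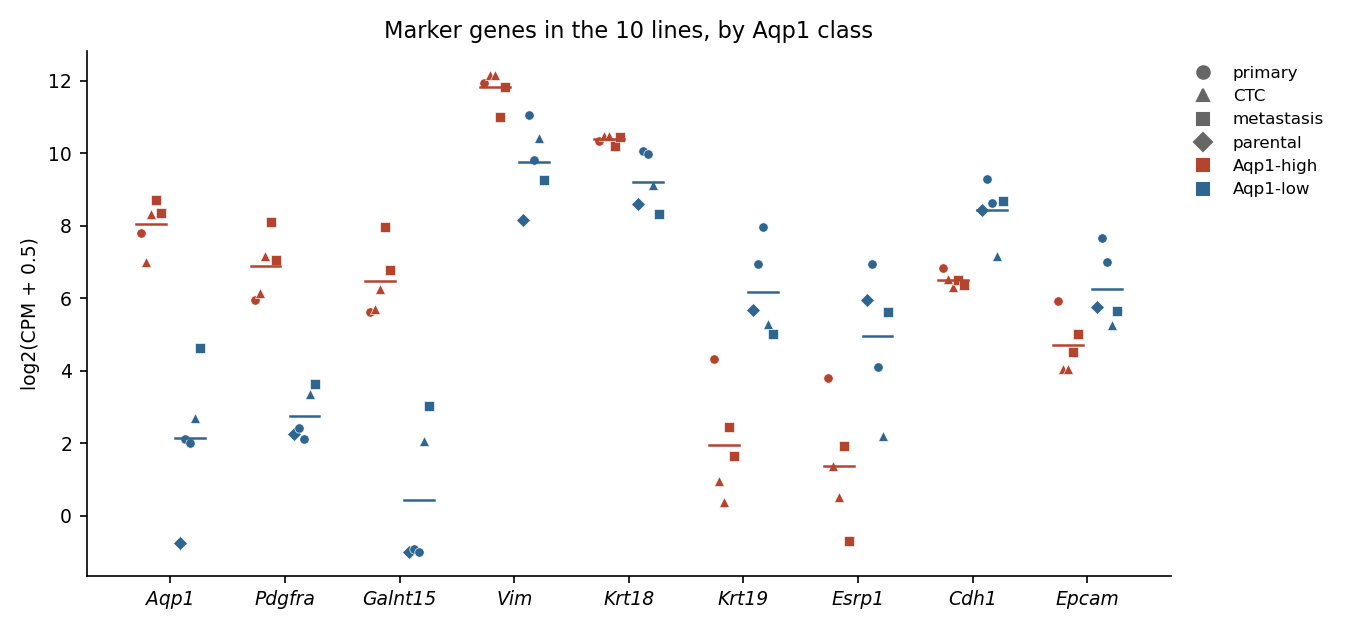
Levels of 9 genes in the 10 lines, as log2(CPM + 0.5) on the y axis; each point is a line, its shape gives the stage of origin, red is Aqp1-high, blue is Aqp1-low, and bars are class means. Aqp1, Pdgfra, Galnt15, Krt18, Krt19 and Cdh1 separate without overlap, and Vim, Esrp1 and Epcam overlap through 1 or more lines.

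The windows of 250 bases before the RefSeq start (GRCm38.p6) are shown for Aqp1, for Pdgfra and Galnt15, which were high in the same lines, and for Epcam, an epithelial gene that was lower on average, so that these upstream sequences can be compared. Of 8 genes looked up (these 4, Vim, Krt19, Esrp1 and Cdh1), 5 matched. Capitals mark an E-box of the Zeb and Snai kind (CACCTG or CAGGTG) or an AP-1 motif (TGANTCA), searched on both strands together with a Grhl motif (AACCGGTT) and a TEAD motif (CATTCC or GGAATG), none of which overlap in these windows. The windows lie at chr6:55336049-55336298 (Aqp1), chr5:75152001-75152250 (Pdgfra), chr14:32028853-32029102 (Galnt15) and chr17:87635729-87635978 (Epcam), all on the + strand.
Aqp1: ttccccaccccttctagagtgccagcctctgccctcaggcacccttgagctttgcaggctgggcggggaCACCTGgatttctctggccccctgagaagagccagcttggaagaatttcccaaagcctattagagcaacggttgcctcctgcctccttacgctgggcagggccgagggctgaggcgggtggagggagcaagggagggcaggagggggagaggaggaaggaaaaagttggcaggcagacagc
Pdgfra: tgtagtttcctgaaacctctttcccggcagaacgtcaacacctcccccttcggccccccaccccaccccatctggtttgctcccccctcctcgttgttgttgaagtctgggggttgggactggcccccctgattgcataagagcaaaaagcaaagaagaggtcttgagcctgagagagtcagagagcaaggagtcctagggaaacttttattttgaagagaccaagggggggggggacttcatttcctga
Galnt15: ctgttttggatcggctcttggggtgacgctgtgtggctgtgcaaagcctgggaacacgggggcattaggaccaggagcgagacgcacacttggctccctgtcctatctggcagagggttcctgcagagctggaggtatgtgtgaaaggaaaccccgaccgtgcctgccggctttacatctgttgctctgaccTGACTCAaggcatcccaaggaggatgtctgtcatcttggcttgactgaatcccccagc
Epcam: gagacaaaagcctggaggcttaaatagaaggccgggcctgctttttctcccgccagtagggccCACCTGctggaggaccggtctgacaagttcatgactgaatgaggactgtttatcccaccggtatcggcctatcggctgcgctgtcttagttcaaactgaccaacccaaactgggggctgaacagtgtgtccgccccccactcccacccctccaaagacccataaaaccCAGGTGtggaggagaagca

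The E-box of Aqp1 begins 181 bases before the start, those of Epcam 187 and 19 bases before it, and the AP-1 match of Galnt15 58 bases before it. The Pdgfra window holds none of the 4 motifs. It lies before the start of the transcript Pdgfra-201. The bases before Pdgfra-202, which begins at chr5:75155899 and held 63.0% to 98.1% of the gene's transcript counts, were not searched. Among all 32851 promoter windows of this length, 17.2% held an E-box, 6.75% an AP-1 motif, 12.6% a TEAD motif and 0.116% a Grhl motif. For the genes whose classes did not overlap, an E-box was in 17.5% of 1678 windows of the higher and 13.3% of 905 windows of the lower genes, against 15.4% over the windows of genes with a mean of at least 1 CPM. An AP-1 motif was in 5.42% and 2.98% of the same windows, against 4.48%. A match is a description of letters and not a binding site.

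Across the 12659 genes with a mean of at least 1 CPM, all 5 Aqp1-high lines were above all 5 Aqp1-low lines in 1609 genes, 12.7%, and below them in 1070 genes, 8.45%. These shares are the background for each count of members without overlap given below. For counts of members by their mean alone the background is 54.6% higher and 45.4% lower. Since the classes were chosen on Aqp1, nothing is read from the counts beyond their size. The difference of class means exceeded 1 on the log2 scale in 1092 of the higher and 453 of the lower genes. Gaps between the classes were wider upwards: 160 higher genes and 15 lower genes had a gap of over 1 on the log2 scale, and 26 and 0 a gap of over 2. The median difference over all 12659 genes was 0.08. A gene can reach the mean of 1 CPM through lines of 1 class alone, and the filter then sets its direction.

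The lines that stood nearest to the other class were few. Primary 5 was the Aqp1-high line closest to the Aqp1-low lines in 44.0% of the higher and 64.7% of the lower genes. Without primary 5 the higher and lower counts were 1948 and 1634, and without primary 7 they were 2127 and 1633. On the other side metastasis 7 was closest in 43.4% of the higher genes and primary 7 in 39.6% of the lower. Across genes, the correlation of log2(CPM + 0.5) between libraries was 0.918 to 0.972 among the Aqp1-high lines, 0.909 to 0.954 among the Aqp1-low lines and 0.806 to 0.934 between the classes. The highest values between the classes were those of primary 5, 0.934 with metastasis 7 and 0.929 with CTC 6. Within its own class, primary 5 had 0.932 with metastasis 5. Genes are not independent replicates, and these values share the gene-to-gene range of expression.

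The epithelial part of the class contrast was broad but not complete. Of 32 measured adhesion genes (33 listed), 24 had a lower mean in the Aqp1-high lines, 6 of them without overlap, and 2 (Ppl and Spint1) were higher without overlap, with a list median of -0.99. Without primary 5, the 6 became 12, and without metastasis 7 they became 10. In the same settings the lower genes among all measured genes rose from 1070 to 1634 and 1318. Cdh1 (E-cadherin) was at 113, 91.2, 79.3, 90.2 and 81.04 CPM in the Aqp1-high lines and at 348, 626, 394, 143 and 413 CPM in the Aqp1-low lines. No Aqp1-high line reached the lowest Aqp1-low line, CTC 6, but all of them still carried the transcript. Dsp (desmoplakin, which ties desmosomes to keratin) was at 66.7, 2.68, 13.02, 6.46 and 31.2 against 167, 186, 120.3, 84.03 and 80.2 CPM, and primary 5 was the closest to the other class. Cgn (cingulin) and Pkp2 (plakophilin-2) also had classes that did not overlap, with differences of -2.41 and -2.37. Epcam, at 59.5, 16, 16.1, 22.3 and 31.5 against 53.2, 203, 126, 37.7 and 49.7 CPM, overlapped through primary 5. Ppl (periplakin, a cornified envelope and desmosome protein) ran against the list, at 42.3, 98.3, 95.95, 59.02 and 68.5 CPM in the Aqp1-high and 15.3, 38.5, 7.19, 7.49 and 16.9 CPM in the Aqp1-low lines.

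Keratins did not move as a block. Only 7 of 13 listed keratins reached a mean of 1 CPM, 5 with a lower and 2 with a higher mean in the Aqp1-high lines. Besides Krt19, which was lower, Krt18 separated the classes in the opposite direction, at 1279, 1416, 1424, 1177 and 1387 against 383, 1075, 1001, 559 and 319.9 CPM. Krt8, the partner of Krt18 in simple epithelia, was at 499, 203, 919, 116 and 1292 CPM and 51.98, 146, 589, 361 and 336 CPM, and its classes overlapped widely. Krt5 and Krt6a were listed at 0 in all 10 libraries.

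Among 15 measured epithelial regulators of 20 listed, 11 had a lower mean in the Aqp1-high lines and 5 of these did not overlap. Grhl2, a transcription factor of epithelial junction genes, was at 22.3, 9.36, 18.7, 18.2 and 27.4 CPM against 75.7, 55.6, 65.7, 57.97 and 32.3 CPM. Ovol1, a repressor of mesenchymal genes, was at 1.27, 0.25, 0.14, 0.28 and 0.26 against 10.1, 10.4, 5.38, 2.71 and 3.86 CPM, where primary 5 again stood above the other Aqp1-high lines. Elf3, Grhl1 and Esrp2, the paralog of Esrp1, were also lower without overlap, with differences of -2.15, -2.55 and -1.52. Tfap2c, an AP-2 factor of the luminal mammary lineage, was higher without overlap, at 15.9, 44.1, 31.4, 15.7 and 21.5 against 0.62, 1.22, 1.88, 9.51 and 1.41 CPM.

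The mesenchymal side was narrower than the label mesenchymal-like implies. Of 26 listed mesenchymal genes 11 had a mean below 1 CPM, among them Cdh2 (N-cadherin), listed at 0 in all 10 libraries, and Acta2, Tagln and Cdh11. Of the 15 measured, 11 had a higher mean in the Aqp1-high lines, and 3 (Pdgfra, S100a4 and Sparc) did so without overlap, with a list median of 0.56. Vim (vimentin) was at 3939, 4598, 4577, 2049 and 3607 CPM against 286, 2114, 898, 1370.2 and 617 CPM. Its classes overlapped only because primary 7 stood above metastasis 5. S100a4, a calcium-binding protein of motile cells, was at 257, 753, 974, 258 and 749 against 37.8, 159.5, 47.2, 74.7 and 31.7 CPM and did not overlap. Fn1 (fibronectin) was at 3492, 1132, 2635, 6868 and 4186 against 2716, 4155, 3915, 2992 and 3398 CPM, so that its difference of -0.12 lay inside a wide overlap, and Tnc had a lower mean in the Aqp1-high lines. The names Aqp1-high and Aqp1-low are therefore kept here: the Aqp1-low lines did carry more of most epithelial genes, while the Aqp1-high lines kept Cdh1 and Krt18 and did not carry N-cadherin.

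Zeb1, Zeb2, Snai1 and Twist1, the best known transition factors, overlapped between the classes. Zeb1 was at 1.19, 1.47, 2.29, 1.05 and 3.34 CPM in the Aqp1-high lines and 0.38, 2.97, 0.72, 1.38 and 1.04 CPM in the Aqp1-low lines. Zeb2 was at 105, 69.8, 81.2, 121 and 86.3 against 72.8, 37.01, 80.3, 132 and 72.2 CPM, with CTC 6 the highest of all. Snai1 was at 22.3, 20.4, 28.5, 28.3 and 30.1 against 33.6, 26.9, 25.2, 20.8 and 17.9 CPM, with the parental line the highest. The classes overlapped in all 3 of these genes. Twist1 had a higher mean (0.89), but CTC 6 stood just above primary 5 and metastasis 5. Without CTC 6, or with CPM taken over all entries of the table, the classes of Twist1 did not overlap. Other factors did separate: of 13 measured of 18 listed, 5 (Foxc1, Foxc2, Tcf3, Tcf4 and Prrx1) were higher without overlap and 1, Snai3, lower. Prrx1, at 0.5 to 4.19 against 0 to 0.43 CPM, reached a mean of 1 CPM only through the Aqp1-high lines. Snai3, at 0.04 to 0.49 against 0.5 to 3.58 CPM, did so only through the Aqp1-low lines. The filter thus set the direction of both, and their classes nearly met. Foxc1, a forkhead factor of mesenchyme, was at 124, 224, 264, 396 and 308 CPM against 50.7, 68.9, 42.4, 40.8 and 70.9 CPM. Tcf4, an E-protein and dimer partner of Twist factors, was at 276, 405, 519, 425 and 456 against 66.8, 95.6, 72.5, 116 and 167 CPM, and Foxc2 had a difference of 1.66.

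**Figure D2:**
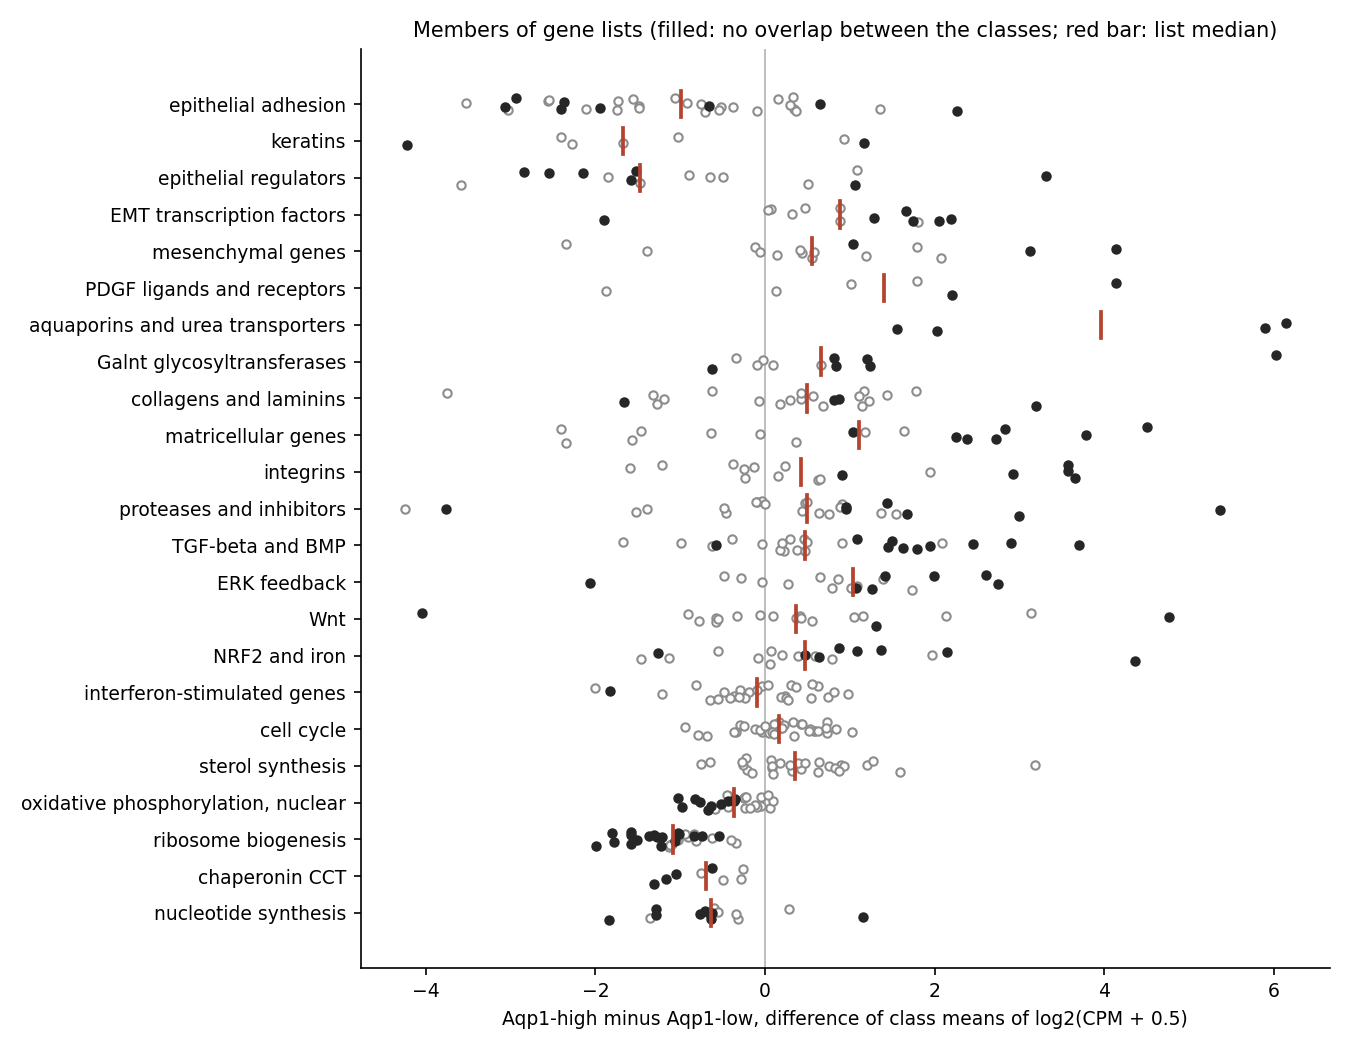
Difference of class means (Aqp1-high minus Aqp1-low, log2(CPM + 0.5), x axis) for the members of 23 gene lists with a mean of at least 1 CPM; each circle is a gene, filled where the classes do not overlap, and the red bar is the list median. The epithelial lists lie mostly left of 0 and the aquaporin list, which includes Aqp1 itself, right of it. The cell cycle list lies around 0, and all 30 ribosome biogenesis genes lie left of it.

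Among the widest gaps upwards were Aqp1, Pdgfra and Galnt15 and genes of varied function. H19 (chr7:142575529-142578143, - strand), an imprinted long noncoding RNA of fetal tissue, had the widest gap, 3.53 on the log2 scale, at 10.7, 11.6, 11.8, 9.2 and 15.8 CPM in the Aqp1-high lines and 0, 0.34, 0.21, 0.14 and 0.07 CPM in the Aqp1-low lines. It was narrow within the Aqp1-high class and close to absent in the other. Sele and Selp, genes of the endothelial adhesion molecules E- and P-selectin on chromosome 1, also had wide gaps. Sele was at 8.84, 15.7, 16.7, 13.3 and 13.9 CPM against 0, 0.08, 0.06, 0.2 and 0.42 CPM. Selp was at 21.3, 19.99, 15.2, 35.98 and 15.8 CPM against 0.01, 0.05, 0.01, 0.03 and 2.27 CPM, and metastasis 7 alone among the Aqp1-low lines was above 1 CPM. Of other endothelial markers, Flt1, a VEGF receptor, was also higher without overlap (66.2 to 135 against 28.1 to 47.7 CPM), Eng had a higher mean with overlap, and Pecam1 and Cdh5 reached at most 0.59 and 1.15 CPM in any library. Their part in the selectin levels was not tested.

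Olfm1, a secreted olfactomedin protein, was at 162, 213, 225, 124 and 175 CPM against 1.08, 16.1, 5.87, 12.9 and 13.1 CPM. Trib2, a pseudokinase, was at 54.1, 108, 135, 137 and 190.0 against 0.7, 1.35, 1.4, 9.14 and 6.67 CPM, with CTC 6 and metastasis 7 the highest of the lower class. Adamts9, a matrix protease, and Dmp1, an acidic matrix protein of bone and dentin, had differences of 4.86 and 4.96. Cyp24a1, the enzyme that breaks down active vitamin D, and Dusp27, an atypical phosphatase, had differences of 4.3 and 4.5. Of the 24 genes with the widest gaps in both directions, 10 share exon bases with another annotated gene, among them H19, Pdgfra, Selp and Adamts9. Strand use in counting is not given in the sources here, so reads of such neighbours cannot be told apart.

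Downwards, Adamts1 (chr16:85793827-85803113, - strand), a secreted matrix protease, had the widest gap at 1.77, with 16.9, 5.37, 9.04, 14.9 and 8.71 CPM in the Aqp1-high and 214, 210.0, 307, 75.8 and 59.04 CPM in the Aqp1-low lines. Its paralog Adamts9 thus went in the opposite direction. Gadd45b, a stress-response gene, was at 10.9, 3.92, 6.89, 12.5 and 11.1 against 868, 115, 243, 68.6 and 34.8 CPM, spread over a wide range within the Aqp1-low class, where the parental line was highest. Mfsd2a, a lipid transporter, was at 2.26, 1.43, 0.9, 1.63 and 1.03 against 8.25, 25.6, 19.9, 8.81 and 11.4 CPM. Among the other lower genes, Higd1a, Ctps, Rps27l, Ccdc86, Arhgdig, Snrpa1, Zdhhc23 and Taf4b had differences between -1.89 for Arhgdig and -1.24 for Rps27l. Ctps (CTP synthase) was at 123, 93.6, 78.1, 72.3 and 81.05 against 378, 279.6, 405, 279.5 and 261 CPM.

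**Figure D3:**
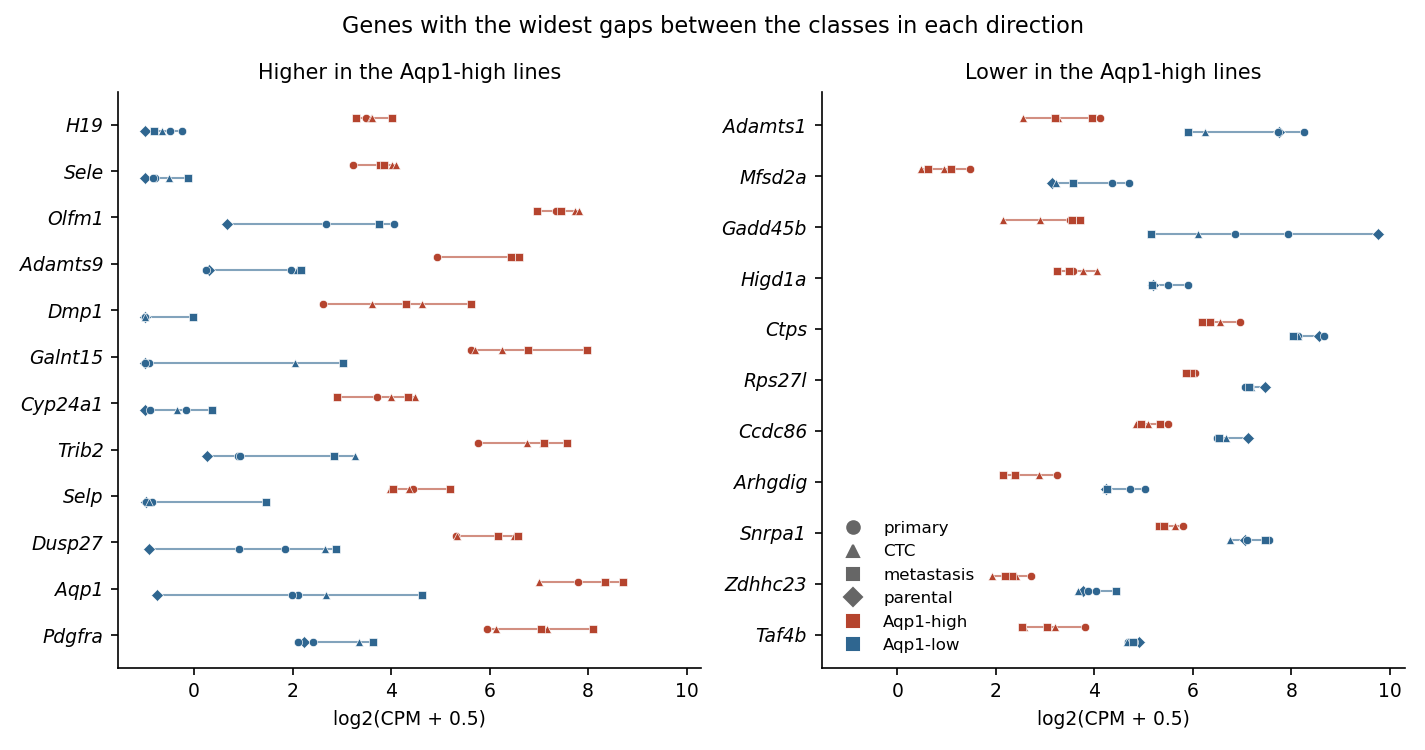
Genes with the widest gaps between the classes in each direction, 12 higher and 11 lower, among genes with a mean of at least 5 CPM; points are lines (x axis, log2(CPM + 0.5)), shapes give the stage of origin, and bars run from the lowest to the highest line of a class. The gap is 3.53 for H19 and 1.77 for Adamts1, the widest of each panel.

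Of 13 listed aquaporins and urea transporters, only 4 reached a mean of 1 CPM. These include Aqp1 itself, which the rule set apart in advance. In the others, Slc14a1, Aqp5 and Aqp11, the classes did not overlap either. Aqp11 passed that mean only through the Aqp1-high lines, with class means of 2.56 and 0.63 CPM. Slc14a1, a urea transporter found with Aqp1 in red cells and kidney vessels, was at 25.1, 152, 91.3, 41.9 and 101 CPM in the Aqp1-high lines and 0, 0.28, 0, 0.39 and 4.64 CPM in the Aqp1-low lines. As for Aqp1, metastasis 7 stood highest among the latter. Aqp5, a water channel of glands, came close to overlap, at 46.2, 21.5, 39.5, 38.7 and 37.2 against 2.83, 10.1, 4.64, 21.01 and 13 CPM. Aqp11 was low in all lines, with a difference of 1.56. Among 11 measured Galnt enzymes of 19 listed, 5 were higher without overlap (Galnt1, Galnt2, Galnt4, Galnt11 and Galnt15), Galnt2 at 334, 299.7, 372, 551 and 388 against 129.6, 144, 156, 220.2 and 190.0 CPM, and Galnt3 was lower (-0.62).

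In the PDGF system, the receptor Pdgfra was accompanied by Pdgfrl, a receptor-like protein, at 20.9, 7.14, 20.97, 59.01 and 9.35 against 2.1, 2.22, 2.88, 5.4 and 6.64 CPM. The ligand Pdgfb had a lower mean in the Aqp1-high lines (-1.87) with overlap. The second receptor, Pdgfrb, was seen almost solely in the lines numbered 5, at 16.2 CPM in primary 5 and 19.1 CPM in metastasis 5, and was at most 1.3 CPM elsewhere.

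Of 25 measured TGF-beta and BMP genes (31 listed), 9 were higher without overlap and 1, Skil, lower. The co-receptor Tgfbr3 was at 43.1, 86.8, 86.9, 116 and 102 CPM in the Aqp1-high lines and 1.47, 5.48, 3.13, 12.98 and 18.2 CPM in the Aqp1-low lines. The ligand Tgfb1 was at 81, 88.4, 90.3, 116 and 122 against 11.6, 66.7, 18.3, 23.3 and 30.4 CPM, where primary 7 stood near the upper class. Ltbp2, a matrix protein of the latent TGF-beta binding protein family, and Id2, a target of BMP signals, differed by 2.45 and 2.9 without overlap.

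Of 18 genes of ERK feedback, 14 had a higher mean in the Aqp1-high lines and 6 did so without overlap, with a list median of 1.04. The phosphatase Dusp6, which switches ERK off, was at 242, 415, 336, 351 and 336 CPM against 50.9, 89.3, 109, 104 and 76.5 CPM. Spry1, an inhibitor of receptor tyrosine kinase signals, was at 174, 198, 249, 557 and 355 against 20.97, 56.9, 27.8, 54.2 and 105 CPM, and the ETS factor Etv1 differed by 2.75. Myc, on the same list as an ERK-responsive gene, was the 1 member lower without overlap, at 432, 210.4, 206, 185 and 237 against 1500.4, 442, 1636, 1363 and 711 CPM. There primary 5 and primary 7 nearly met.

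In the Wnt list, 15 of 34 genes stayed below a mean of 1 CPM, and 3 of the other 19 (Lgr6, Tcf7l1 and Wnt7a) did not overlap. Without primary 5, 4 were higher and 2 lower without overlap, of 18 measured. Lgr6, a receptor for R-spondins that strengthens Wnt signals, was at 163, 151, 254, 311 and 297 CPM against 0.01, 29.98, 0.89, 24.7 and 72.7 CPM. The Wnt ligand Wnt7a was at 3.5, 1.07, 0.35, 0.16 and 0.23 against 55.3, 69.2, 30.5, 5.23 and 4.05 CPM, the opposite direction to Lgr6. For the ERBB receptors and ligands, 1 of 11 measured genes, the ligand Tgfa, was higher without overlap, with metastasis 5 at 59.8 CPM next to primary 7 at 59.5 CPM. With TMM scaling no gene of that list was apart.

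Matrix and protease genes separated the classes unevenly. Of 16 measured matricellular genes 7 were higher without overlap and none lower. Spp1 (osteopontin, an integrin ligand) was at 3162, 3799, 5349, 9708 and 7679 CPM in the Aqp1-high lines and 43.6, 304, 666, 1245 and 854 CPM in the Aqp1-low lines. Ccn5, a connective tissue growth factor relative, was at 17.6, 21.8, 18.9, 238 and 27.6 against 0.28, 0.99, 0.31, 0.88 and 6 CPM, with metastasis 5 far above the other lines. Col6a1, a chain of collagen VI, was at 159, 54.5, 163, 294 and 210.1 against 2.93, 32.5, 7.4, 31.5 and 46.1 CPM, while Lamb3, a chain of the epithelial laminin-332, had a lower mean (-3.75, with overlap).

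Mmp3 (stromelysin-1) was at 314, 542, 904, 95.1 and 775 CPM against 2.22, 9.62, 5.91, 71.8 and 6.9 CPM. Its classes nearly met at metastasis 5 and CTC 6. Mmp13, a collagenase, was at 6.21, 12, 12.7, 2.29 and 14.04 against 0.52, 0.89, 0.54, 0.8 and 0.23 CPM. Of 16 measured integrins 5 (Itga1, Itga6, Itga8, Itgb2 and Itgb3) were higher without overlap. The alpha chain Itga8 was at 28.3, 27.6, 27.5, 97.5 and 44.6 against 4.37, 4.62, 1.73, 5.4 and 0.48 CPM. Itga1, a collagen receptor chain, was at 50.1, 40.3, 52.8, 76.8 and 65.7 against 0.7, 7.38, 3.12, 5.62 and 11 CPM. Itgb2, a beta chain known from leukocytes, was at 66.6, 207, 257, 116 and 187 against 0.58, 21.1, 18.6, 24.7 and 29.1 CPM. Ptprc (CD45, carried by all leukocytes) was at most 0.24 CPM in any library. The part of leukocytes in the Itgb2 levels was not tested.

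Of 19 measured genes of the NRF2 and iron list, 7 were higher without overlap and 1, the iron transporter Slc11a2, lower. Gstm1, a glutathione transferase, was at 34.8, 53.2, 54.3, 46.6 and 59.7 CPM in the Aqp1-high lines and 0.58, 2.47, 0.94, 1.85 and 7.04 CPM in the Aqp1-low lines. Nqo1, a quinone reductase, was at 51.3, 19.6, 19.1, 25.8 and 22.3 against 0.87, 6.08, 5.56, 7.72 and 15.4 CPM, with primary 5 above the rest.

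A group of growth genes was lower in the Aqp1-high lines. All 30 of 30 ribosome biogenesis genes on a list drawn up after the class values had been seen had a lower mean there, 18 of them without overlap (24 without primary 5), with a median of -1.08. Nolc1, a nucleolar chaperone, was at 136, 128, 91.01, 97.1 and 86.97 CPM against 480.1, 364, 244, 353 and 428 CPM. Ddx21, a nucleolar helicase, was at 353, 283, 183, 201.8 and 192 against 783, 621, 704, 679.8 and 743 CPM. Of the 8 subunits of the CCT chaperonin, on a list chosen in the same way, all 8 had a lower mean and 4 (Cct3, Cct6a, Cct7 and Cct8) did not overlap. Cct6a differed by -1.31. Of 15 nucleotide synthesis genes, likewise chosen after the values, 8 were lower and 1, Ctps2, higher without overlap, and Atic, a purine synthesis enzyme, was at 222, 194, 174, 157 and 181 against 416, 463, 591, 403 and 394 CPM.

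Nuclear genes of oxidative phosphorylation were lower in mean in 24 of 27 cases, 10 without overlap, with a median of -0.36. Cox5a, a subunit of complex IV, was at 127, 114, 80.7, 107 and 89.01 CPM against 271, 174, 189, 218 and 205 CPM. Atp5b, the beta subunit of ATP synthase, was at 1947, 1868, 1484, 1426 and 1308 against 3406, 2416, 3239.8, 3179 and 3577 CPM. The mitochondrially encoded genes lay the other way in mean, 12 of 12 measured, but none without overlap.

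In other lists few or no members separated the classes. None of 35 cell cycle genes, 28 measured sterol synthesis genes or 21 measured cytokine and NF-kB genes had classes that did not overlap, with medians of 0.16, 0.36 and -0.04. Without primary 5, 1 cell cycle gene was lower, 2 sterol genes were higher, and 2 cytokine genes were higher and 3 lower without overlap. Without metastasis 7 the cytokine list had 3 lower, and without the parental line 2 higher. Insig1, a sterol feedback protein, was at 87.9, 254, 289.8, 537 and 479 against 20.5, 129, 24.8, 13.1 and 28.8 CPM and overlapped through primary 5 and primary 7. Of 29 measured interferon-stimulated genes 1, Ifi44, was lower without overlap, and of 19 measured MHC class I genes 1, H2-T23, was higher. In the YAP and TEAD list 3 of 16 measured genes (Wwtr1, Tead2 and Vgll4) were higher and 1, Ajuba, lower, around a median of 0.03. Glycolysis and hypoxia genes gave 1 in each direction of 28 measured, Egln3 higher and Higd1a lower. Amino acid and ER stress genes gave 1 in each direction of 26, Pdia4 higher and Phgdh lower, and 3 higher and 7 lower without primary 5. Of 14 measured mammary lineage and stem-like genes 1, Itgb3, was higher without overlap, and 3 were without primary 5. Among heat shock and immediate early genes, listed as a check on sample quality, more members separated the classes. Of 13 measured, 3 were lower (Hspa1a, Hspa1b and Hsp90aa1) and 1, Ier2, higher, and the part of handling in this was not tested. None of 8 measured transcripts without a poly-A tail separated the classes.

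Transcript shares were compared in genes with at least 100 counts in every library, for transcripts with at least 10% of the gene's counts in some line. Over 19825 such transcripts, 819 had class shares that did not overlap in either direction, 4.13%. Of 12 genes whose splicing depends on, or is listed with, Esrp proteins, 11 had counted transcripts. Fgfr2 was left out, with as few as 96 counts in a library. Of the 41 counted transcripts of the 11 genes, 4 had class shares that did not overlap, in 2 genes. They were Numb-204 and Ctnnd1-223, higher in the Aqp1-high lines, and Numb-208 and Numb-209, lower there. Shares within a gene are tied, since a rise of one lowers the others, so those of Numb are not separate events. Numb-204 of Numb, an adaptor that inhibits Notch, held 82.2%, 86.3%, 88.9%, 86.0% and 91.3% of the gene's transcript counts in the Aqp1-high lines and 23.7%, 45.8%, 32.5%, 43.3% and 51.8% in the Aqp1-low lines. It lacks exons of 147 bases (chr12:83797197-83797343) and 33 bases (chr12:83825259-83825291) that another annotated Numb transcript holds. Numb was shallow, with as few as 117 counts in a library, so these shares are less certain than those of Ctnnd1.

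Ctnnd1 encodes p120 catenin, which stabilises E-cadherin at the membrane. Ctnnd1-223, which holds an 18-base exon (chr2:84612532-84612549) absent from a major transcript of the gene, took 15.5%, 17.6%, 14.8%, 10.5% and 12.6% against 3.3%, 5.3%, 5.5%, 6.4% and 8.1%. Slk-202, with a 93-base exon (chr19:47627648-47627740) absent from the main Slk transcript, took 8.4%, 7.1%, 8.1%, 9.5% and 11.4% against 9.6%, 45.4%, 15.6%, 13.7% and 18.9%. Its classes overlapped through the parental line. The form of Cd44 with 19 exons, against 9 in the standard form, was at 39.3% to 41.7% in CTC 1, metastasis 5 and metastasis 3 but at 0.3% or less in primary 5 and CTC 3, so that it followed no class.

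Pdgfra, added to the transcript comparison after its values had been seen, also differed in where its transcripts began. Pdgfra-201 begins with a 152-base exon at chr5:75152306-75152457, downstream of the window printed above, and Pdgfra-202 with a 451-base exon at chr5:75155899-75156349. Pdgfra-201 took 25.4%, 16.2%, 25.8%, 35.5% and 35.6% of the gene's transcript counts in the Aqp1-high lines and was listed at 0 in all 5 Aqp1-low lines. In those the gene had 295 to 826 counts, and a count of 0 allows a share of 0.363% to 1.02%, for counting error only. Shares of transcripts are estimates from short reads.

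**Figure D4:**
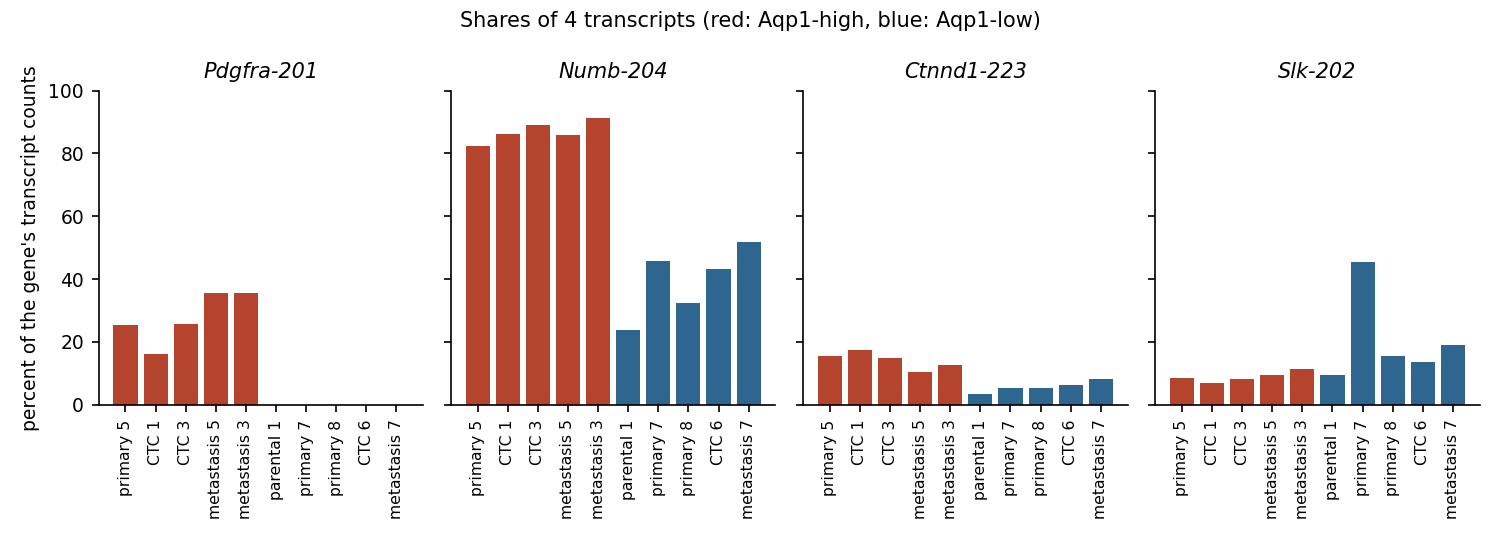
Percent of a gene's transcript counts held by 4 transcripts (y axis) in each of the 10 lines (x axis; red Aqp1-high, blue Aqp1-low). Pdgfra-201 is 0 in the Aqp1-low lines, Numb-204 and Ctnnd1-223 are higher in all Aqp1-high lines, and Slk-202 is highest in primary 7.

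Stage of origin, given by the labels and unused in making the classes, was set against them. The Aqp1-high class held 1 of 3 primary, 2 of 3 CTC and 2 of 3 metastasis lines, and a two-sided exact permutation test over the 126 ways to place 5 of 9 derived lines gave p = 1.0. With so few lines, no placement could have given a p under 0.05, so this test cannot decide whether the class follows the stage. In all 3 pairs of lines that share a number in their titles (primary 5 and metastasis 5, primary 7 and metastasis 7, CTC 3 and metastasis 3), both lines were in the same class. The one-sided exact permutation p for that count was 0.0952, which is the smallest that 5 of 9 lines and 3 pairs can give, so the test could not have passed 0.05.

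Stages were then compared with the class as a term, in 1 edgeR quasi-likelihood fit of all 10 libraries, where the p-values reflect the spread among these lines only. Lines that share a number were treated as independent in this fit. No gene of 19936 (0.0%) passed an adjusted p of 0.05 in metastasis against primary, CTC against primary or metastasis against CTC. At an unadjusted p under 0.05 there were 1849, 823 and 1097 genes, and DESeq2 with the same terms called 502, 181 and 139. Pelo, a ribosome rescue factor, came nearest in metastasis against CTC, with a log2 difference of -3.71 (SE 0.33, adjusted p = 0.0512), and in metastasis against primary (-3.59, SE 0.34, adjusted p = 0.0883). It was at 0.81, 0.66 and 0.6 CPM in metastasis 5, 3 and 7 and at 7.07 CPM or more in each of the other 7 lines, of either class. Pelo (chr13:115088355-115090186, - strand) lies inside Itga1 and shares exon bases with the predicted genes Gm10734 and Gm49395, so its count is uncertain. Adam12, a metalloprotease, and Dynap, a dynactin-associated protein, followed in metastasis against primary, each at an adjusted p of 0.0982. For CTC against primary, Zbtb20, Postn and Acap1 had the smallest p, each at an adjusted p of 0.19.

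The class difference had the same sign in each stage of origin for the genes whose classes do not overlap, by construction. Aqp1 differed by 5.74 on the log2 scale within primary, 4.98 within CTC and 3.9 within metastasis lines, and Pdgfra by 3.69, 3.32 and 3.94. Cdh1 differed by -2.13, -0.74 and -2.27 within the same stages, least in the CTC lines, where CTC 6 carried the lowest level of the Aqp1-low class. These within-stage values rest on 3 lines each and were not tested.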

How the data were processed

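RNA of 10 cell lines, 1 library each, had been sequenced in paired ends; the labels name polyA RNA and a total RNA kit, which differ. Per the submitters' processing notes the tools were HISAT2 2.1.0, StringTie 2.0.3 and DESeq2 1.26.0 with GRCm38. The deposited gene and transcript tables hold estimated counts, rounded here to whole numbers. Neither the annotation release nor strand use is given in the sources used here. Of 72544 gene entries, 17126 assembled ones, which name no gene and held 19.7% to 22.8% of a library's counts, were left out of CPM and of the class description, as were 0 columns of other samples. CPM was taken over the 55418 named genes. A class difference is the mean of log2(CPM + 0.5) in the Aqp1-high minus that in the Aqp1-low lines, over genes with a mean of at least 1 CPM. Transcripts were matched to GENCODE M21 and promoters to RefSeq GRCm38.p6. 

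The members and gene lists were chosen with earlier results of these data known. Named genes are the 5 class markers, the 12 widest gaps in each direction at a mean of at least 5 CPM (no predicted genes or clones), up to 4 members of a list with the largest difference, Cdh1, Cdh2, Epcam and Vim, and the 3 smallest p-values of each stage test. Other genes, the selectin, ribosome biogenesis, chaperonin and nucleotide lists, and the Pdgfra transcripts were chosen after their values were seen. A few genes the rule picks are not reported here. Stages were tested with edgeR 4.0.16 in R 4.3.3 (quasi-likelihood, TMM, Benjamini-Hochberg adjustment, stage and class as terms); limma 3.58.1 and DESeq2 1.42.0 were alternatives. Each line is 1 culture, so a p-value reflects the spread among these lines and nothing wider. The steps were tested on simulated data. Between lines with the same number in their titles, deviations from the stage means correlated at 0.53 (CTC 3 and metastasis 3), 0.42 (metastasis 5 and primary 5) and 0.11 (metastasis 7 and primary 7). Metastasis 7 and primary 7 correlated better with CTC 6 and CTC 1, respectively, than with each other. Both lines of each pair also share a class, and the part of this in the correlations was not tested. The numbers were used to pair lines in the replicate block alone, and the main fit treated all lines as independent. The evidence for this pairing is in the values alone; the labels leave the numbers unexplained.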

Additional observations from a re-analysis of the deposited data

Results flagged for a closer look

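In 180 groups of 5 lines (90 genes, 2 classes), 15 held a line far from the rest. Its distance from the nearest other line was over 0.71 of the group's range on the log2(CPM + 0.5) scale. Independent values with a normal spread would give about 5.0%. These genes share the same lines, were chosen with results of these data known, and some lie at or near 0 CPM, so that rate is only a rough guide. Cdh2, at 0 throughout, has no range. Primary 5 was the line far from the rest in 6. It stood toward the Aqp1-low lines in Aqp11 (1.55 CPM, others 2.54 to 3), Adamts9 (29.8 CPM, others 86.4 to 96.1), Lamb3 (17.8 CPM, others 1.14 to 2.68), Myc (432 CPM, others 185 to 237), Ovol1 (1.27 CPM, others 0.14 to 0.28) and Snai3 (0.49 CPM, others 0.04 to 0.08). Lamb3 is a laminin-332 chain of epithelial basement membrane, and Ovol1 keeps epithelial identity.

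Metastasis 7 was that line among the Aqp1-low lines in 4 genes that were higher in most or all Aqp1-high lines or, for Pdgfrb, in some. It had 4.64 CPM of the urea transporter Slc14a1 (others 0 to 0.39), 2.27 CPM of P-selectin gene Selp (others 0.01 to 0.05), 0.49 CPM of Dmp1 (others 0) and 1.3 CPM of Pdgfrb (others 0 to 0.06).

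The parental line stood apart in the leukocyte integrin chain Itgb2 (0.58 CPM, others 18.6 to 29.1) and in the nucleolar gene Ccdc86 (139 CPM, others 89.0 to 101). Galnt3 was at 107 CPM in primary 7 (other Aqp1-low lines 69.6 to 71.8). Among the Aqp1-high lines, Aqp5 was at 21.5 CPM in CTC 1 (others 37.2 to 46.2) and Ccn5 at 238 CPM in metastasis 5 (others 17.6 to 27.6).

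In 3 transition genes every line of a stage moved one way and every line of another stage the other way; the difference was not tested. The class difference of Fn1 (log2) was -0.21 within primary, -0.79 within CTC and 0.66 within metastasis lines. For Zeb2 it was 0.93, -0.81 and 0.5, and for Snai1 -0.22, 0.21 and 0.69, in the same order.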

How the results depend on the processing

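The genes whose classes did not overlap numbered 1609 higher and 1070 lower. Leaving out 1 line in turn gave 1674 to 2189 higher and 1113 to 1634 lower (1634 without primary 5, 1633 without primary 7), where fewer lines have to be apart. TMM gave 1516 and 1198, DESeq2's size factors 1440 and 1281, CPM over all entries 1673 and 1007, no filter 2026 and 1295, and a mean of at least 10 CPM 1187 and 926. Of 527 list medians under alternatives 11 changed sign, in the YAP and TEAD, cell cycle, cytokine and interferon lists, and of 1495 gene differences 3 did, in Fn1 and Snai1. With a pseudocount of 0.1 the difference of H19 was 5.71, with 1 it was 3.46. In the stage tests, which called 0 genes, the replicate block, which pairs lines by number and leaves 1 residual degree of freedom, also called 0 in each; RLE scaling and no filter called 0. Without the class term metastasis against CTC had 1 call (Pelo). DESeq2 called 502 (metastasis against primary), 181 (CTC against primary) and 139 (metastasis against CTC), and limma-voom 3 (Pelo, Adam12 and Dynap), 0 and 1 (Pelo); the cause was not tested. Leaving out 1 line gave 0 to 1 calls in metastasis against primary (1, Adam12, without metastasis 3) and 0 in both other comparisons. Splitting the lines at the widest Aqp1 gap set the parental line alone apart, so the test of line numbers gave no value there. Of the genes whose transcript shares are given, Numb is the shallowest, with as few as 117 counts.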

Other observations

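Some class differences were carried by lines of 1 number. Pdgfrb, the receptor of pericytes and fibroblasts, was above 16 CPM in primary 5 and metastasis 5 alone, and Col6a3, a collagen VI chain, was at 15.7 CPM in metastasis 5 and 0.84 CPM in primary 5 and at most 0.16 CPM elsewhere. Postn (periostin, a matrix protein of stroma) was at 9.09, 11.2 and 18.3 CPM in primary 5, 7 and 8 and at 34.8 CPM in the parental line, but at most 0.09 CPM in the 6 CTC and metastasis lines of either class. Adam12 was at 6.53, 91.8 and 90.9 CPM in the primary lines and 37.8 CPM in the parental line, with CTC 6 at 9.43 CPM and the other 5 lines at 1.08 CPM or less. Neither passed edgeR's stage tests over all lines; Adam12 passed metastasis against primary in limma-voom, and in edgeR without metastasis 3 (adjusted p = 0.0242). Both genes were singled out after their values were seen.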
